A study of Homo sapiens with 8 samples.

Results

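The human mitochondrial genome carries 37 annotated genes, and their transcripts were followed in HepG2 cells that overexpressed the de novo DNA methyltransferase DNMT3A. The members were all rows that the deposited gene table places on chromosome MT, 37 of 58735 genes, a rule that uses no measured value. By annotation 13 are protein-coding (mRNA), 2 are ribosomal RNA (rRNA) and 22 are transfer RNA (tRNA) genes. The plus strand holds 28 of them and the minus strand 9, namely MT-ND6 and 8 tRNA genes.

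HepG2 is an established line of human hepatocellular carcinoma, grown here in DMEM with fetal bovine serum and antibiotics. The 4 DNMT3A libraries came from cells given a DNMT3A-overexpressing lentivirus (genotype DNMT3A overexpression, library names pLV_EGFP_DN), and the 4 control libraries from cells given a control lentivirus (genotype WT, library names pLV_EGFP_NC). Per the labels' protocols, RNA was taken with poly-T beads, random hexamers primed the cDNA, fragments of 370 to 420 bp were preferred, and no strand-marking step is named. The sources used here do not give the transgene's promoter, the number of clones or the time after infection.

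Mitochondrial DNA is transcribed from both strands into long precursors in which tRNAs lie between the other genes. Enzymes cut out the tRNAs, and the mRNAs and rRNAs released between them receive short poly(A) tails, which complete the stop codon where the gene itself ends on T or TA. The mRNAs encode subunits of complexes I, III and IV of the respiratory chain and of the ATP synthase (complex V), which the liver uses for most of its ATP, and all other proteins of the organelle come from nuclear genes. MT-ND6 is the mRNA of the strand that otherwise carries only tRNAs, and it is known for lacking a long poly(A) tail, so poly-T capture does not recover every member alike.

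The ends of the mRNA genes are shown because they differ in how the stop codon is made. They are gene ends and not always transcript ends, since MT-ATP8 and MT-ND4L each share an mRNA with the gene that follows. Each line gives the last 24 bases of the gene, 5′ to 3′ on the gene's own strand, with the stop letters in capitals, from the GENCODE release 29 transcripts (GRCh38).
MT-ND1: ctccagcattccccctcaaaccTA
MT-ND2: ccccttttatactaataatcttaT
MT-CO1: gaacccgtatacataaaatctAGA
MT-CO2: atagggcccgtatttaccctaTAG
MT-ATP8: cattcattgcccccacaatccTAG
MT-ATP6: ctctacctgcacgacaacacaTAA
MT-CO3: tctccatctattgatgagggtctT
MT-ND3: aaaaaggattagactgaaccgaaT
MT-ND4L: aacctaaacctactccaatgcTAA
MT-ND4: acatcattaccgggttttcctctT
MT-ND5: ctaaccctactcctaatcacaTAA
MT-ND6: attgagattgctcgggggaatAGG
MT-CYB: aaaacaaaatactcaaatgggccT
A full stop codon stands in 7 of these 13 ends, counting AGA of MT-CO1 and AGG of MT-ND6, and 6 end on T or TA.

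The 6 tRNA genes whose libraries did not overlap between the groups are shown whole, since they are described singly below. Such separation is common here, at 25.1% of all tested genes. CpG dinucleotides, the usual target of DNMT3A, are in capitals, and no methylation was measured here.
MT-TL1 (MT:3230-3304, plus strand): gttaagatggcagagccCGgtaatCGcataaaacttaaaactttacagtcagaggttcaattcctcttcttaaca
MT-TI (MT:4263-4331, plus strand): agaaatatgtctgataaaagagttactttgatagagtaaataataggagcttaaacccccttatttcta
MT-TY (MT:5826-5891, minus strand): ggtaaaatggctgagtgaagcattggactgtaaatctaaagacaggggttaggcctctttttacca
MT-TR (MT:10405-10469, plus strand): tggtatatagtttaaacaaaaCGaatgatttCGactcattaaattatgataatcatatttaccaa
MT-TE (MT:14674-14742, minus strand): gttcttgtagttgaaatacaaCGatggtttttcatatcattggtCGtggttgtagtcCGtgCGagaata
MT-TT (MT:15888-15953, plus strand): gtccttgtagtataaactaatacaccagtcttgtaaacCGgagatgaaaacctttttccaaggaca
These genes hold 4 CpG in MT-TE, 2 each in MT-TL1 and MT-TR, 1 in MT-TT and 0 in MT-TI and MT-TY. The log2 change of the 35 tested members and their CpG per 100 bases had a Pearson r of 0.02 and a Spearman rho of 0.03. By class, r and rho were -0.59 and -0.53 over the 13 mRNAs, and -0.46 and -0.41 without MT-ATP8. Over the 20 tested tRNAs they were -0.11 and -0.10. All these values are descriptions over genes that share precursors and libraries, and a link with CpG was not tested.

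Reads recovered from the table came to 17232809 to 17626137 in the DNMT3A libraries and 15911019 to 17677093 in the control libraries. DNMT3A averaged 8.93 ± 1.33 FPKM (fragments scaled to gene length and a size factor per library) in DNMT3A libraries and 3.65 ± 0.178 FPKM in control libraries (SD, n = 4 each; log2 change 1.09, limma adjusted p = 0.000122). All 10 hepatocyte markers were detected above the filter, with summed levels of 9869 to 12644 FPKM in DNMT3A libraries and 10341 to 11026 FPKM in control libraries. Limma called 3 of the 10 higher and 0 lower, with AFP at 1143 ± 192 FPKM in DNMT3A libraries and 370 ± 9.28 FPKM in control libraries (SD, n = 4 each), and the part of this in the results below was not tested. Summed stromal markers reached at most 0.0253 FPKM in DNMT3A libraries and 0.0543 FPKM in control libraries, and endothelial markers 0.565 to 0.679 FPKM in DNMT3A libraries and 0.435 to 0.547 FPKM in control libraries. The leukocyte list summed to 314.5 to 345.0 FPKM in DNMT3A libraries and 197 to 263 FPKM in control libraries, nearly all of it LYZ, while 2 of its 5 genes, among them PTPRC, which marks all leukocytes, were at 0 in every library. Over all 11620 tested genes, limma called 1154 higher and 1235 lower in DNMT3A libraries, against 978 higher and 179 lower when scaled by mitochondrial mRNA reads.

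The part of all reads that came from the mitochondrial genome overlapped between the groups. Its genes took 10.1%, 9.97%, 10.5% and 11.7% of recovered reads in DNMT3A libraries 1 to 4, against 10.1%, 11.6%, 12.7% and 12.4% in control libraries 1 to 4. The ranges overlapped, with means of 10.6% ± 0.775 in DNMT3A libraries and 11.7% ± 1.2 in control libraries (SD, n = 4 each). In bulk RNA, fewer cells with a transcript and less of it per cell cannot be told apart. Per length the weight was greater, since mitochondrial genes are short and abundant: they made up 32.4% to 36.1% of summed FPKM in DNMT3A libraries and 31.5% to 37.5% in control libraries.

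Among mitochondrial reads, mRNA genes took 81.5% to 83.9% in DNMT3A libraries and 80.9% to 83.4% in control libraries. The rRNA genes took 16% to 18.2% in DNMT3A libraries and 16.3% to 18.8% in control libraries. Transfer RNA genes took 0.302%, 0.389%, 0.283% and 0.171% in DNMT3A libraries 1 to 4, against 0.383%, 0.288%, 0.238% and 0.290% in control libraries 1 to 4. None of the 3 class shares separated the groups. Genes of the minus strand did: they took 2.28%, 2.20%, 2.46% and 2.93% of mitochondrial reads in DNMT3A libraries 1 to 4, against 1.87%, 2.13%, 2.13% and 1.95% in control libraries 1 to 4. Every DNMT3A library lay above every control library, by a narrow gap at the nearest pair, and the log2 ratio of means was 0.29 on reads. Most of those reads fell on MT-ND6, which took 2.21% to 3.32% of mitochondrial mRNA reads in DNMT3A libraries and 1.88% to 2.33% in control libraries and so overlapped. With FPKM sums in place of reads the log2 ratio was 0.13 and the groups overlapped, so the separation held on reads only. Reads of opposite strands cannot be told apart where no strand was marked, so a minus-strand share here is a share of reads counted on minus-strand genes.

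**Figure D1:**
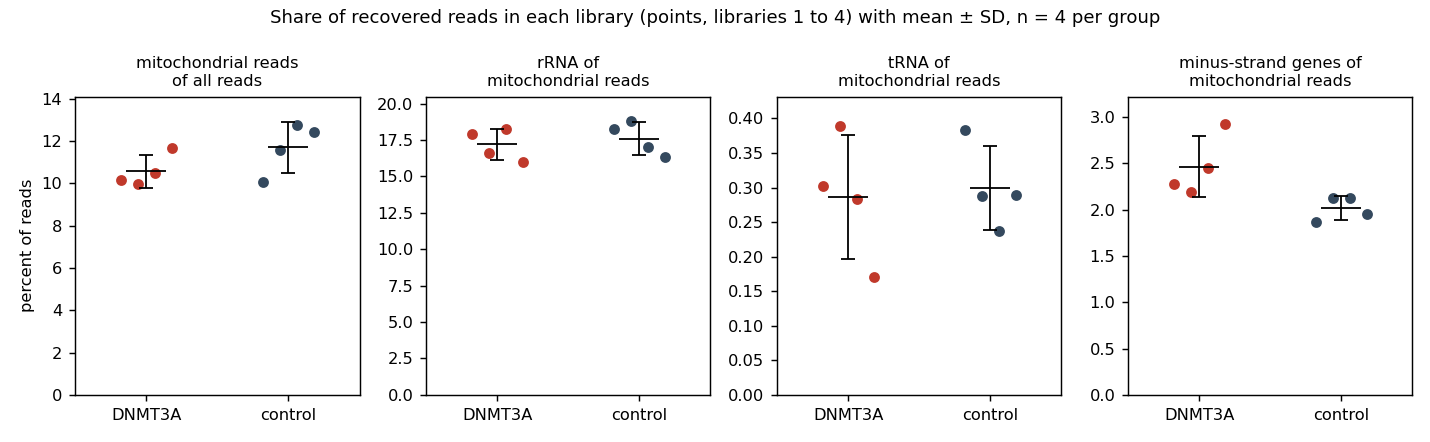
Percent of recovered reads per library (points, libraries 1 to 4 from left to right) with mean ± SD for DNMT3A and control libraries, n = 4 per group, each axis starting at 0. The shares of the whole genome, of rRNA and of tRNA overlap between the groups, while the share of minus-strand genes is 2.20% to 2.93% in DNMT3A libraries and 1.87% to 2.13% in control libraries.

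Gene by gene, most of the calls were of tRNAs and most were downward. Of the 37 members, 35 had a mean of at least 1 FPKM and were tested. MT-TK, tRNA for lysine, was at 0 in all 8 libraries and MT-TA, tRNA for alanine, held 0 to 3 reads per library. Limma at an adjusted p of 0.05 called 14 of the 35, against 20.6% of all tested genes. It called 2 members higher, against 9.93% of all genes, and 12 lower, against 10.6% of all genes. Of the 2 higher, MT-TS2 passed the filter on level only through its DNMT3A libraries, so its call is no evidence of a rise. The groups did not overlap for 8 members, 1 higher and 7 lower, where 25.1% of all tested genes do not overlap, 12.1% higher and 13% lower. With both directions together, the 8 of 35 members are near that share. The median log2 change was -0.29 over the 35 members and -0.01 over all tested genes.

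By class, limma called 0 of 13 mRNAs higher and 2 lower, with a median log2 change of -0.15. Neither of the 2 rRNAs was called. Of the 20 tested tRNAs, 2 were called higher and 10 lower, and their median log2 change was -0.92. By strand, 2 of 27 tested plus-strand genes were called higher and 8 lower, against 0 higher and 4 lower of 8 on the minus strand. Called tRNAs lay on both strands: 2 higher and 6 lower of 13 on the plus strand, and 0 higher and 4 lower of 7 on the minus strand. Few reads stand behind some of them. Among the 10 tested tRNAs that never reached 50 reads in a library, 1 was called higher and 6 lower, and among the 10 that did, 1 was called higher and 4 lower. Leaving out control library 2 lowered the number of members called to 7, and testing every gene without a filter on level lowered it to 4.

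**Figure D2:**
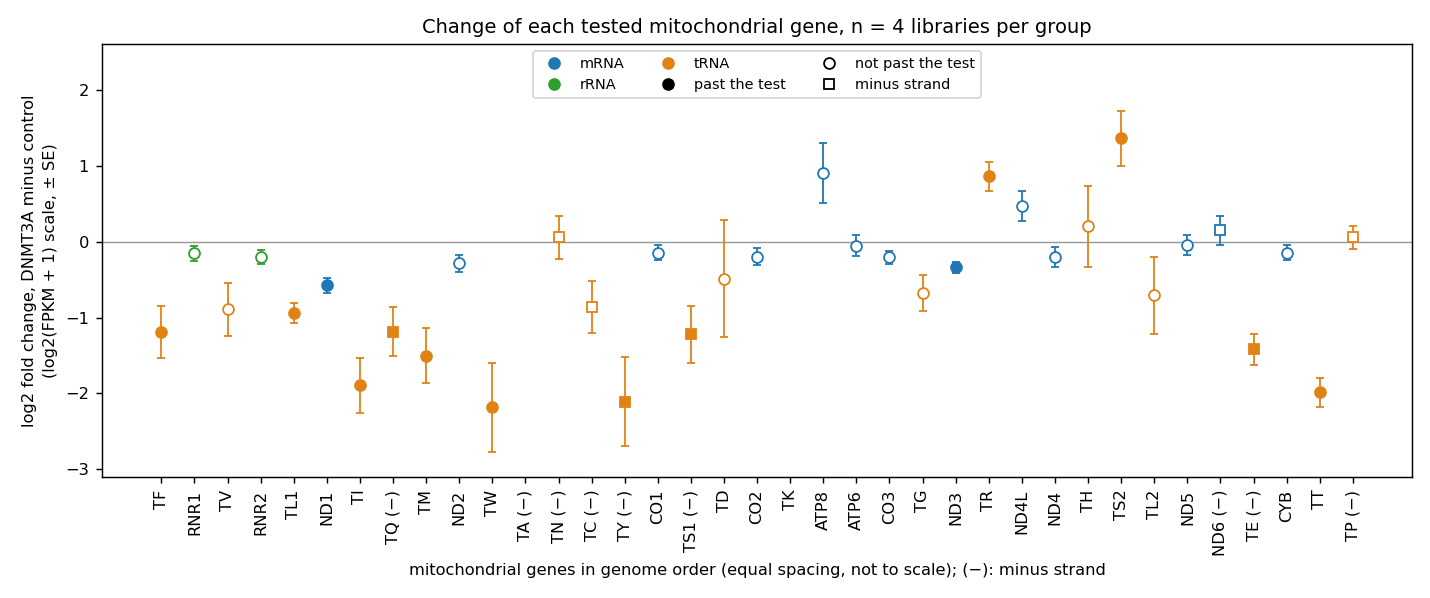
Log2 change (DNMT3A minus control, log2(FPKM + 1) scale, ± SE) of the 35 tested mitochondrial genes in genome order at equal spacing, by class (colour), strand (squares for minus) and limma call (filled), with n = 4 per group. The tRNAs span -2.18 to 1.36 and the mRNAs -0.58 to 0.90, and the 2 gaps are MT-TA and MT-TK, which were not tested.

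Complex I is the entry point of electrons from NADH, and 7 of its subunits are mitochondrial genes. MT-ND1 and MT-ND3 fell, the other 5 did not pass the test. MT-ND1 (ENSG00000198888, MT:3307-4262, plus strand) builds part of the quinone-binding site. It measured 2626, 2766, 2930 and 3265 FPKM in DNMT3A libraries 1 to 4, against 3979, 3937, 4708 and 4676 FPKM in control libraries 1 to 4. The groups were well apart, with the highest DNMT3A library below the lowest control library. The log2 change was -0.58 (SE 0.0963, limma adjusted p = 0.00379). A two-sided exact test over the 70 ways to permute the libraries gave p = 0.0286, which is the lowest value it can take. That test gave the same p for the 8 called members whose groups did not overlap, and 0.0571 to 0.0857 for the other 6 called members. MT-ND1 stayed called without each library in turn, with log2 changes of -0.64 to -0.43 over 19 alternatives, and lost its call when every gene was tested without a filter on level (limma adjusted p = 0.277).

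MT-ND3 (ENSG00000198840, MT:10059-10404, plus strand), a small membrane subunit of complex I, measured 3718, 3618, 3784 and 3359 FPKM in DNMT3A libraries 1 to 4, against 4264, 4400, 4869 and 4786 FPKM in control libraries 1 to 4. Again no DNMT3A library reached the control range. The log2 change was -0.34 (SE 0.0755, limma adjusted p = 0.0131). Scaled by mitochondrial mRNA reads, it was -0.20 and not called (limma adjusted p = 0.263), and the call was also lost with quantile normalization (log2 change -0.12, limma adjusted p = 0.314) and without a filter (limma adjusted p = 0.614).

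MT-ND4L (ENSG00000212907, MT:10470-10766, plus strand), which shares its mRNA with MT-ND4, lay in the other direction. It measured 6855, 7162, 7122 and 9483 FPKM in DNMT3A libraries 1 to 4, against 4398, 4137, 6775 and 7323 FPKM in control libraries 1 to 4. Control libraries 1 and 2 were low and control library 4 lay inside the DNMT3A range, so the groups overlapped. Its log2 change of 0.47 missed the threshold (limma adjusted p = 0.12). It was called when scaled by mitochondrial mRNA reads (log2 change 0.61, limma adjusted p = 0.0167), with voom on recovered reads (limma adjusted p = 0.0329) and with a replicate block. MT-ND2 averaged 3876 ± 424 FPKM in DNMT3A libraries and 4750 ± 667 FPKM in control libraries (SD, n = 4 each), a log2 change of -0.29 (limma adjusted p = 0.107). MT-ND2 was called without DNMT3A library 4 (limma adjusted p = 0.0485), with array weights and with a replicate block. For MT-ND4 and MT-ND5 the log2 changes were -0.20 and -0.05 (limma adjusted p = 0.309 and 0.82). MT-ND6, the only minus-strand mRNA, measured 3894, 3353, 4357 and 6070 FPKM in DNMT3A libraries 1 to 4, against 2928, 4131, 4698 and 4043 FPKM in control libraries 1 to 4. DNMT3A library 4 was the highest of the 8 and the groups overlapped. Its log2 change was 0.15 (limma adjusted p = 0.626), with -0.018 without DNMT3A library 4 and 0.32, then called, with quantile normalization (limma adjusted p = 0.027).

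No mitochondrial subunit of complexes III, IV or V passed the test. Complex IV reduces oxygen, and its catalytic subunit MT-CO1 was the most abundant member, at 17619 ± 1238 FPKM in DNMT3A libraries and 19555 ± 1939 FPKM in control libraries (SD, n = 4 each). The log2 changes were -0.15 for MT-CO1, -0.20 for MT-CO2, which takes electrons from cytochrome c, and -0.21 for MT-CO3 (limma adjusted p = 0.322, 0.227 and 0.106). MT-CYB, the cytochrome b of complex III, had a log2 change of -0.15 (limma adjusted p = 0.309). MT-ATP6, part of the proton channel of the ATP synthase, averaged 9524 ± 1387 FPKM in DNMT3A libraries and 9917 ± 1537 FPKM in control libraries (SD, n = 4 each; limma adjusted p = 0.807).

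MT-ATP8, the second subunit of that enzyme made in the organelle, measured 62.3, 108, 122 and 251 FPKM in DNMT3A libraries 1 to 4, against 56.7, 41.5, 110 and 63.4 FPKM in control libraries 1 to 4. DNMT3A library 4 stood above the rest and the groups overlapped, and the log2 change of 0.90 did not pass the test (limma adjusted p = 0.138). MT-ATP8 shares 46 of its 207 bases with MT-ATP6, and MT-ND4L shares 7 bases with MT-ND4. Each pair is carried on a single mRNA. The sources used here do not give how reads over shared bases were counted, so the levels of both overlapping pairs are uncertain. MT-ATP8 held 148 to 912 reads per library, while MT-ATP6 held 86091 to 138299.

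The 6 mRNA genes that end without a full stop codon all had negative log2 changes, from -0.58 to -0.15 with a median of -0.25. Of the 7 with a full stop codon, 3 were positive and 4 negative, from -0.20 to 0.90 with a median of -0.05. This split was made with the values known, and most of these genes did not pass the test. Over all 13 mRNAs, 10 were negative. The 3 positive genes were MT-ATP8 and MT-ND4L, whose levels are uncertain, and MT-ND6, at -0.018 without DNMT3A library 4. A link with the stop codon was not tested.

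Both rRNAs, the RNA cores of the mitochondrial ribosome, were below the threshold of the test. MT-RNR1 of the small subunit measured 1817, 1648, 1818 and 1401 FPKM in DNMT3A libraries 1 to 4, against 1658, 2021, 1963 and 1781 FPKM in control libraries 1 to 4 (log2 change -0.15, limma adjusted p = 0.309). MT-RNR2 of the large subunit measured 10631, 9227, 11064 and 10878 FPKM in DNMT3A libraries 1 to 4, against 10778, 12629, 12760 and 11957 FPKM in control libraries 1 to 4 (log2 change -0.20, limma adjusted p = 0.148). The ranges overlapped for both genes. MT-RNR2 was 5.60 to 7.76 times MT-RNR1 in DNMT3A libraries and 6.25 to 6.71 times in control libraries, per length.

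Transfer RNAs decode the mitochondrial mRNAs and carry no poly(A) tail as mature molecules. Their genes span 59 to 75 bases, less than the selected fragment length, so a read counted on one can also hold bases of its neighbours. The same limit holds for 3 mRNA genes shorter than 370 bases: MT-ND3 at 346, MT-ND4L at 297 and MT-ATP8 at 207. Mature tRNA, precursor and neighbour were not told apart, and each level below is that of reads counted on the tRNA gene.

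4 tRNAs fell in limma's test under each of 19 alternatives: MT-TL1, MT-TI, MT-TE and MT-TT. MT-TT (ENSG00000210195), tRNA for threonine, lies between MT-CYB and MT-TP. It measured 26.9, 23.2, 43.6 and 35.3 FPKM in DNMT3A libraries 1 to 4, against 103, 156, 131 and 124 FPKM in control libraries 1 to 4. The lowest control library was far above the highest DNMT3A library, on 28 to 50 reads per DNMT3A library and 108 to 177 reads per control library. The log2 change was -1.99 (SE 0.187, limma adjusted p = 0.000207), the smallest adjusted p of any member.

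MT-TE (ENSG00000210194), tRNA for glutamate, is encoded on the minus strand between MT-ND6 and MT-CYB. Its levels were 23.2, 26.9, 45.9 and 42.0 FPKM in DNMT3A libraries 1 to 4, against 81.9, 85.9, 112 and 84.0 FPKM in control libraries 1 to 4. The groups did not overlap, with a log2 change of -1.41 (SE 0.204, limma adjusted p = 0.0019). Its strand neighbour MT-ND6 did not pass the test, so MT-TE over MT-ND6 was 0.00597 to 0.0105 in DNMT3A libraries and 0.0208 to 0.0280 in control libraries, again without overlap.

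MT-TL1 (ENSG00000209082), a tRNA for leucine, lies between MT-RNR2 and MT-ND1. Its levels were 127, 155, 144 and 200 FPKM in DNMT3A libraries 1 to 4, against 290, 271, 287 and 349 FPKM in control libraries 1 to 4. No DNMT3A library reached the control range, and the log2 change was -0.95 (SE 0.133, limma adjusted p = 0.00166). MT-TI (ENSG00000210100), tRNA for isoleucine, follows MT-ND1. It measured 3.32, 7.12, 2.50 and 9.89 FPKM in DNMT3A libraries 1 to 4, against 12.7, 23.6, 22.9 and 30.5 FPKM in control libraries 1 to 4. These levels rest on 3 to 12 reads per DNMT3A library and 14 to 37 reads per control library, and they did not overlap (log2 change -1.89, SE 0.363, limma adjusted p = 0.00687). MT-TL1, MT-ND1 and MT-TI are consecutive genes, and all 3 fell.

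MT-TR (ENSG00000210174), tRNA for arginine, was the tRNA that rose with groups apart. It measured 37.0, 53.8, 54.0 and 71.7 FPKM in DNMT3A libraries 1 to 4, against 26.1, 33.1, 22.4 and 35.0 FPKM in control libraries 1 to 4. The lowest DNMT3A library was just above the highest control library, on 42 to 82 reads per DNMT3A library and 23 to 40 reads per control library. The log2 change was 0.86 (SE 0.194, limma adjusted p = 0.0138, and 0.0647 without a filter on level). MT-TR lies between MT-ND3 and MT-ND4L, whose calls both depend on the scaling.

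A cluster of minus-strand tRNAs lies between MT-ND2 and MT-CO1 and holds, in coordinate order, MT-TA, MT-TN, MT-TC and MT-TY. MT-TY, tRNA for tyrosine, measured 131, 152, 58.4 and 16.4 FPKM in DNMT3A libraries 1 to 4, against 403, 294, 217 and 278 FPKM in control libraries 1 to 4. It was lower in every DNMT3A library, with DNMT3A library 4 the lowest of the 8 (log2 change -2.11, SE 0.584, limma adjusted p = 0.0317). The call did not hold without DNMT3A library 3 or without any of the 4 control libraries, where the limma adjusted p reached 0.0767. It was also lost when scaled by mitochondrial mRNA reads (limma adjusted p = 0.0543) and without a filter on level (limma adjusted p = 0.124). MT-TC, tRNA for cysteine, averaged 667 ± 301 FPKM in DNMT3A libraries and 1137 ± 343 FPKM in control libraries (SD, n = 4 each; log2 change -0.86, limma adjusted p = 0.108). It was called with array weights (limma adjusted p = 0.0471), with voom on recovered reads (limma adjusted p = 0.0363) and with a replicate block. MT-TN, tRNA for asparagine and the most abundant tRNA gene here, measured 2326, 3025, 2281 and 1006 FPKM in DNMT3A libraries 1 to 4, against 2226, 1769, 1667 and 2118 FPKM in control libraries 1 to 4. DNMT3A libraries held both its highest and its lowest value (log2 change 0.05, limma adjusted p = 0.916). MT-TC and MT-TY share 1 base.

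**Figure D3:**
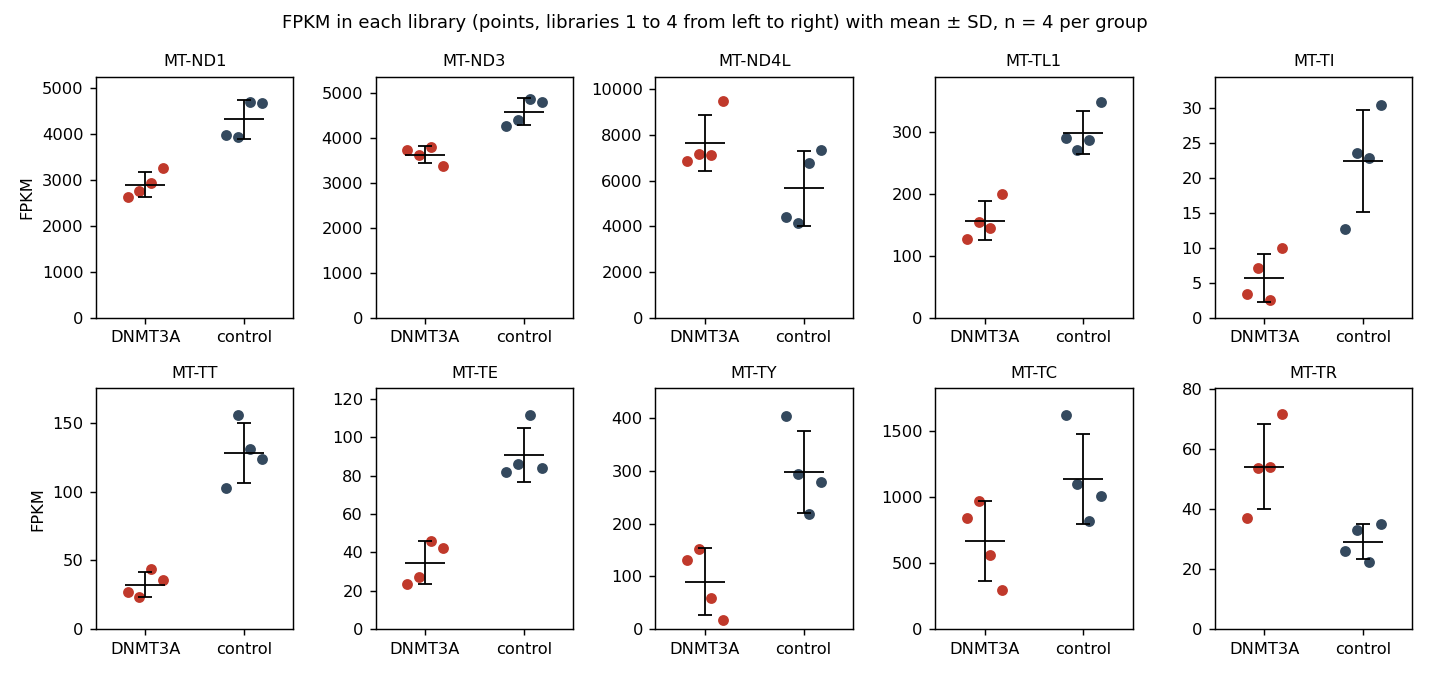
FPKM in each library (points, libraries 1 to 4 from left to right) with mean ± SD for 10 mitochondrial genes, DNMT3A and control libraries, n = 4 per group, each axis starting at 0. MT-ND1, MT-ND3, MT-TL1, MT-TI, MT-TT, MT-TE and MT-TY are lower in every DNMT3A library and MT-TR is higher, while MT-ND4L and MT-TC overlap.

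5 further tRNAs were called lower and 1 was called higher, all with overlapping groups. MT-TM, tRNA for methionine, held 3 to 14 reads per DNMT3A library and 10 to 29 per control library (log2 change -1.50, limma adjusted p = 0.0189), and was not called without control library 2 (limma adjusted p = 0.0555). MT-TW, tRNA for tryptophan, held 0 to 8 reads per DNMT3A library and 5 to 12 per control library (limma adjusted p = 0.0285). Its call was lost without DNMT3A library 1, 2 or 4 or control library 1, 2 or 3 (limma adjusted p up to 0.0742). MT-TQ, tRNA for glutamine, held 2 to 5 reads per DNMT3A library and 5 to 13 per control library (limma adjusted p = 0.0282), and the call was lost without DNMT3A library 1 or 2 or control library 2 or 3 (limma adjusted p up to 0.0766). MT-TS1, a tRNA for serine, held 1 to 6 reads per DNMT3A library and 4 to 8 per control library (limma adjusted p = 0.0448), and the call was lost without DNMT3A library 1, 2 or 3 or control library 1, 2 or 3 (limma adjusted p up to 0.113). MT-TF, tRNA for phenylalanine, held 1 to 3 reads per DNMT3A library and 2 to 8 per control library (limma adjusted p = 0.0367), and the call was lost without DNMT3A library 1 or 3 or control library 2, 3 or 4 (limma adjusted p up to 0.0965). MT-TS2, the other tRNA for serine, held 10 reads over the DNMT3A libraries and 1 read over the control libraries and was called higher (limma adjusted p = 0.0282). Its mean was 2.38 FPKM in DNMT3A libraries and 0.268 FPKM in control libraries. It thus passed the filter of 1 FPKM only through the group where it is high, which favours an upward call. That call was lost without DNMT3A library 1 or 2 or control library 1, 2 or 4 (limma adjusted p up to 0.0742). All of these calls were also lost without a filter on level, and those of MT-TF, MT-TQ, MT-TS1 and MT-TS2 with voom on recovered reads. MT-TW and MT-TS2 lost theirs with array weights, MT-TS1 with a replicate block and with scaling by mitochondrial mRNA reads. These calls rest on too few reads for a size of change to be read from them.

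The remaining 6 tested tRNAs besides MT-TN and MT-TC were not called. MT-TP, tRNA for proline, averaged 853 ± 158 FPKM in DNMT3A libraries and 820 ± 140 FPKM in control libraries (SD, n = 4 each; log2 change 0.06, limma adjusted p = 0.821). MT-TV, tRNA for valine, lies between the rRNA genes and had 33.5 ± 13.9 FPKM in DNMT3A libraries and 61.4 ± 19.8 FPKM in control libraries (log2 change -0.89, limma adjusted p = 0.0995). It was called without control library 1 (limma adjusted p = 0.0395). MT-TG, tRNA for glycine, had a log2 change of -0.67 (limma adjusted p = 0.074) and was called without DNMT3A library 1 (limma adjusted p = 0.034). MT-TH, MT-TD and MT-TL2, for histidine, aspartate and leucine, held 0 to 36 reads per library. MT-TD, with 0 reads in control library 3, was called without it (limma adjusted p = 0.0309).

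Neighbouring and nearby genes were then set against each other within each library, which removes the scaling of the library. MT-ND1 over MT-ND2 was 0.721, 0.765, 0.784 and 0.724 in DNMT3A libraries 1 to 4, against 0.971, 0.925, 0.895 and 0.868 in control libraries 1 to 4. The ratio was lower in every DNMT3A library, and MT-ND1 over its upstream rRNA MT-RNR2 was lower in every one too. MT-ND1 took 3.01% to 3.32% of mitochondrial mRNA reads in DNMT3A libraries and 4.05% to 4.64% in control libraries.

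MT-ND4L over MT-ND4 was 0.809, 0.901, 0.805 and 0.868 in DNMT3A libraries 1 to 4, against 0.516, 0.417, 0.560 and 0.658 in control libraries 1 to 4. All DNMT3A ratios were above all control ratios although both genes alone overlapped between the groups, and although textbooks place both on a single mRNA. MT-ND4L took 2.44% to 2.93% of mitochondrial mRNA reads in DNMT3A libraries and 1.32% to 2.09% in control libraries. Of 22 ratios examined, 12 did not overlap between the groups and 10 did, and all are descriptions with no test. Many have as numerator a gene whose own groups did not overlap, namely MT-ND1, MT-TL1, MT-TT, MT-TE, MT-TY or MT-TR. Separation of those ratios was partly set by the choice of pair, and no share of separated ratios among other genes was computed.

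MT-TC over MT-TN was 0.360, 0.321, 0.246 and 0.293 in DNMT3A libraries 1 to 4, against 0.728, 0.621, 0.490 and 0.477 in control libraries 1 to 4, and did not overlap. MT-TY over MT-TC was 0.156, 0.157, 0.104 and 0.0556 in DNMT3A libraries 1 to 4, against 0.249, 0.267, 0.266 and 0.275 in control libraries 1 to 4, and did not overlap either. Within this cluster, then, reads counted on MT-TY and MT-TC were fewer relative to MT-TN in all 4 DNMT3A libraries than in the control libraries. MT-TT over MT-CYB was 0.00513 to 0.00970 in DNMT3A libraries and 0.0215 to 0.0337 in control libraries, and MT-TL1 over MT-RNR2 was 0.0119 to 0.0184 in DNMT3A libraries and 0.0215 to 0.0292 in control libraries. Groups overlapped for MT-RNR2 over MT-RNR1, MT-CO2 over MT-CO1, MT-CO3 over MT-ATP6, MT-ATP8 over MT-ATP6, MT-ND6 over MT-CYB, MT-TL1 over MT-ND1 and MT-TR over MT-ND4L, among others.

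**Figure D4:**
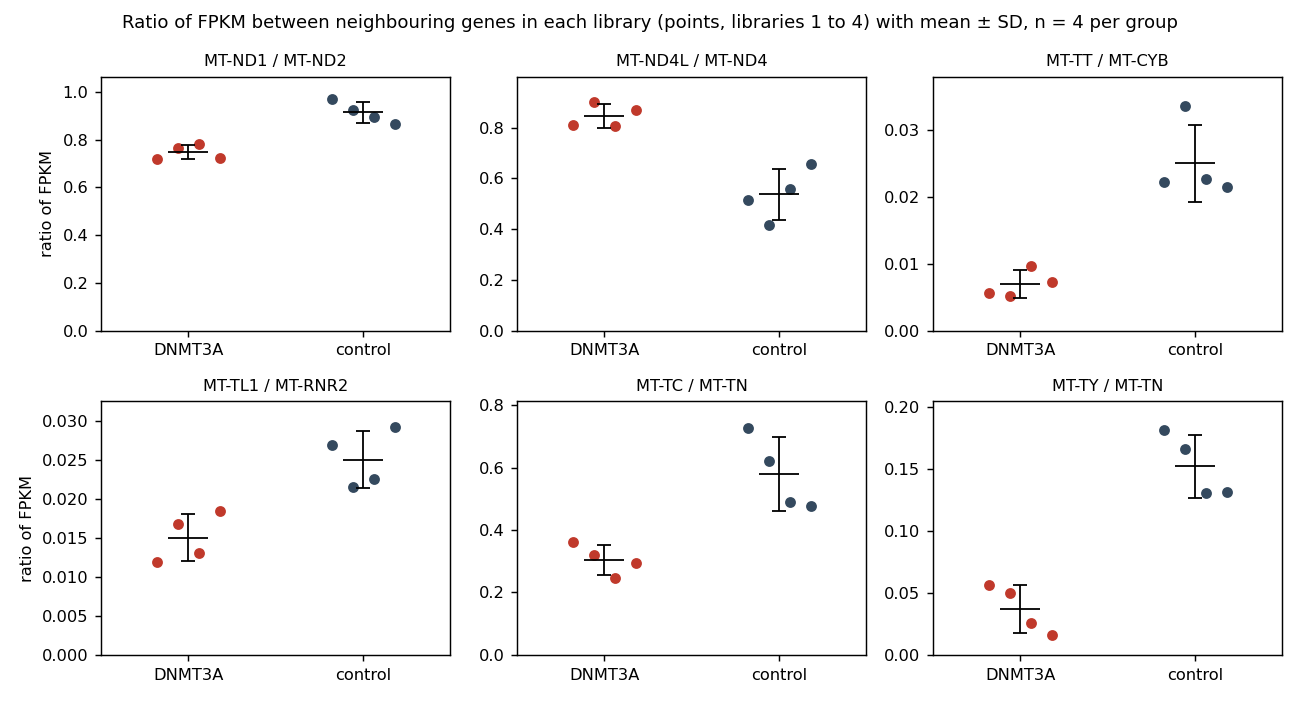
Ratio of FPKM of paired mitochondrial genes in each library (points, libraries 1 to 4 from left to right) with mean ± SD, DNMT3A and control libraries, n = 4 per group, each axis starting at 0. In the 6 pairs drawn the groups do not overlap: MT-ND4L over MT-ND4 is higher in DNMT3A libraries and the other 5 ratios are lower.

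Nuclear pseudogenes of mitochondrial origin can take reads from their sources. The table holds 407 of them, and 6 passed the filter on level. All 407 together held 0.642% to 0.857% of the reads counted on mitochondrial genes and pseudogenes together, over all 8 libraries. The most abundant, MTATP6P1 on chromosome 1, matches MT-ATP6 at 98.5% of 681 bases and had 851 ± 133 FPKM in DNMT3A libraries and 858 ± 134 FPKM in control libraries (SD, n = 4 each; log2 change -0.01, limma adjusted p = 0.963). MTND1P23, which matches MT-ND1 at 99.1% of 352 bases, had 0.440 to 2.14 FPKM in DNMT3A libraries and 2.03 to 2.90 FPKM in control libraries and was called lower (log2 change -0.81, limma adjusted p = 0.0266). That call was lost without DNMT3A library 1, 2 or 3 or control library 2, 3 or 4 (limma adjusted p up to 0.0712). The other 5 were not called. Reads over stretches where a source and its copy are identical cannot be told apart, so the levels of these pseudogenes and of their sources are uncertain.

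Nuclear genes that serve the mitochondrial genome are read against the 20.6% of all tested genes that were called, 9.93% higher and 10.6% lower. Of 10 tested genes for its transcription, 0 were called either way. The mitochondrial RNA polymerase POLRMT averaged 28.6 ± 1.87 FPKM in DNMT3A libraries and 31.8 ± 2.13 FPKM in control libraries, and TFAM, which packs the DNA and starts transcription, 22.7 ± 1.77 FPKM in DNMT3A libraries and 22.8 ± 0.431 FPKM in control libraries (SD, n = 4 each). Of 20 for replication, 0 were called higher and 2 lower, among them SSBP1, the mitochondrial single-strand DNA binding protein (log2 change -0.29, limma adjusted p = 0.0055). Of 13 for biogenesis of the organelle, 0 were called higher and 1 lower.

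Of 22 genes for cutting and stabilising mitochondrial RNA, 2 rose and 3 fell, near that background. KIAA0391, which encodes PRORP, the nuclease that cuts tRNA 5′ ends, averaged 2.68 ± 0.575 FPKM in DNMT3A libraries and 1.34 ± 0.214 FPKM in control libraries (SD, n = 4 each; log2 change 0.65, limma adjusted p = 0.00483). FASTKD5, needed for mRNA junctions that hold no tRNA, averaged 25.3 ± 1.56 FPKM in DNMT3A libraries and 19.2 ± 1.39 FPKM in control libraries (SD, n = 4 each; log2 change 0.38, limma adjusted p = 0.00463). ANGEL2 fell (log2 change -0.31, limma adjusted p = 0.0079). HSD17B10, a further subunit of the tRNA-cutting enzyme, and LRPPRC, which stabilises mitochondrial mRNAs, had log2 changes of -0.10 and -0.08 and were not called. Of 27 genes that modify mitochondrial RNA, 2 rose and 0 fell: ALKBH1, which acts on methylated tRNA bases (log2 change 0.49, limma adjusted p = 0.00598), and METTL17, which binds the small ribosomal subunit (log2 change 0.36, limma adjusted p = 0.00895). KIAA0391 and METTL17 lie on chromosome 14 between 20 and 45 Mb, where 88 of 114 tested genes rose and 0 fell with a median log2 change of 0.49. Those bounds were chosen after the values were seen, and the part of that region in either result was not tested.

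For the same enzyme complexes, downward calls of nuclear subunits over all 5 complexes were near the background of 10.6% lower over all tested genes. None was called higher, where 9.93% of all tested genes were. Limma called 1 of 34 tested nuclear genes of complex I lower, 2 of 4 of complex II, which has no mitochondrial subunit, 2 of 9 of complex III, 2 of 11 of complex IV and 1 of 15 of complex V. Their median log2 changes were -0.08, -0.21, -0.10, -0.24 and -0.12 for complexes I to V. UQCR10 of complex III averaged 44.4 ± 4.47 FPKM in DNMT3A libraries and 61.9 ± 7.09 FPKM in control libraries (SD, n = 4 each; log2 change -0.47, limma adjusted p = 0.00944). NDUFA4 of complex IV averaged 24 ± 1.47 FPKM in DNMT3A libraries and 29 ± 2.17 FPKM in control libraries (SD, n = 4 each; log2 change -0.26, limma adjusted p = 0.0255). Its call was lost without DNMT3A library 3 or control library 1, 2 or 3 (limma adjusted p up to 0.0707). Scaled by mitochondrial mRNA reads, which raised the median of all genes by 0.12 on the log2 scale, all 8 of these subunit calls were lost, as were the downward calls of the replication, biogenesis and processing lists, SSBP1 and ANGEL2 among them.

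**Figure D5:**
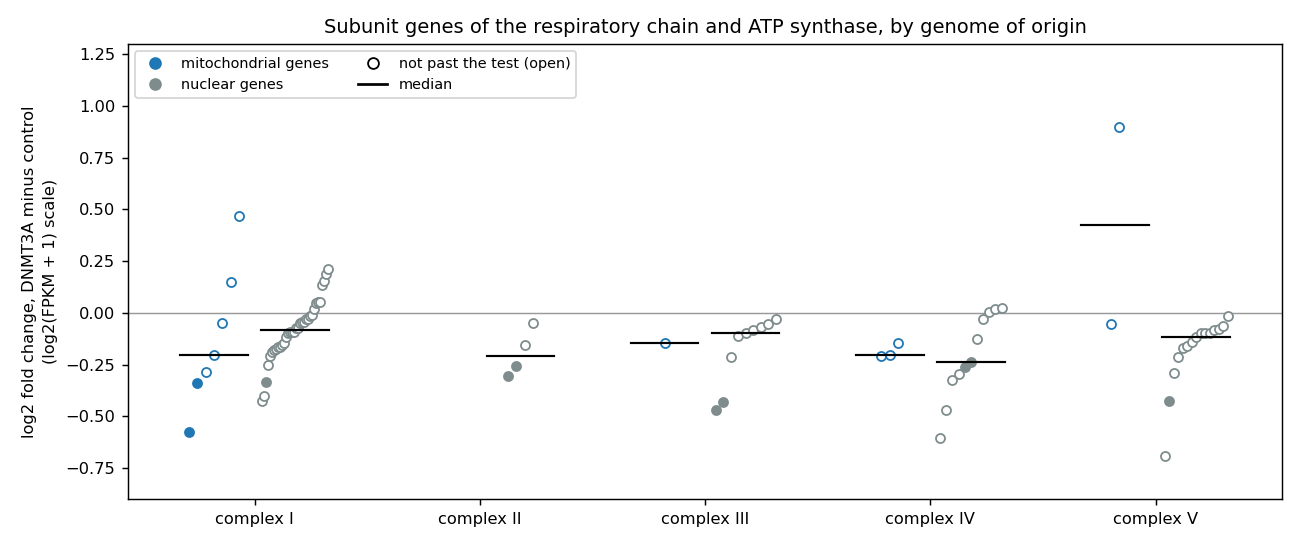
Log2 change (DNMT3A minus control, log2(FPKM + 1) scale) of each tested subunit gene of complexes I to V, with mitochondrial genes left and nuclear genes right within a complex, filled where limma called the gene and with a bar at the median. Mitochondrial subunits run from -0.58 to 0.90 and 2 of 13 are called, and no nuclear subunit is called higher, against 9.93% of all tested genes.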

How the data were processed

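Poly(A) RNA of 8 HepG2 libraries, 4 DNMT3A and 4 control by sample title, was analysed from the authors' deposited table of FPKM values per gene. Per the submitters' processing notes, HISAT2 2.0.5 and hg38 were used, and the counter is not given in the sources used here. FPKM times gene length fell on whole multiples of 1 step per library, the worth of 1 read, for 100% of values (tolerance 0.01 read), which gave the reads. Median-ratio factors of the deposited FPKM were the same in all 8 libraries, so the values already stand on that scale. All 37 members have the coordinates and strand of GENCODE release 29.

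Genes with a mean of at least 1 FPKM over the 8 libraries (11620) were compared as log2(FPKM + 1) with limma 3.58.1 in R 4.3.3, with an intensity trend, Benjamini-Hochberg adjustment over all of them and a threshold of 0.05. On that scale a fold change understates the change of low genes. Single genes also had an exact permutation test, two-sided, over all 70 assignments of libraries. Sums, shares and ratios of members have no test. Read ranges run from the lowest to the highest library, and PCR reads are not independent molecules.

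Alternatives were a pseudocount of 0.1, no filter, median-ratio, nuclear-read and quantile scaling, a fit without trend, array weights, a replicate block, voom on recovered reads and leaving out each library; scaling by mitochondrial mRNA reads and by summed reads was chosen after seeing the data. Named genes are DNMT3A, all members, up to 4 called and 2 abundant genes of each nuclear list and up to 4 pseudogenes. The gene set and the lists were proposed with earlier results of these data known, although the rule for members uses no values. The labels do not say that libraries of a group came from separate cultures, so the p-values cover only variation among these libraries, possibly technical. No 2 libraries were duplicates.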

Additional observations from a re-analysis of the deposited data

Results flagged for a closer look

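In groups of 4 libraries, a value is given here when its gap to the nearest of the others exceeded Dixon's critical value as a part of the group's range. Among 178 groups examined, 72 of them levels of single members, 15 values were met, and chance alone gives about 1 in 20 groups. 9 of the 15 came from DNMT3A library 4. It was the highest of its group for MT-ND2 at 4507 FPKM, for MT-ND4L at 9483 FPKM, for the mitochondrial share of summed FPKM at 36.1%, for mitochondrial mRNA reads at 9.80% of all reads, for MT-ATP6 at 8.19% of mitochondrial mRNA reads, for MT-ND4L over MT-ND3 at 2.82 and for MT-CO2 over MT-CO1 at 0.799. It was the lowest for complex IV at 42.4% of mitochondrial mRNA FPKM and for MT-ND3 at 1.21% of mitochondrial mRNA reads.

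In the other DNMT3A libraries, MT-TW stood out at 6.77 FPKM in library 3 and MT-TA at 0.791 FPKM in library 2, both on single-digit reads, and MT-TR over MT-ND4L was low at 0.00540 in library 1. Among control libraries, MT-TE was high at 112 FPKM and MT-TS2 at 1.07 FPKM, its only read, in library 3, and MT-TT over MT-CYB was high at 0.0337 in library 2.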

How the results depend on the processing

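The low tRNAs rest on few reads, and rescaling or filtering changed calls, also of abundant members such as MT-ND1. Of the 14 called members, 4 (MT-TL1, MT-TI, MT-TE and MT-TT) were called under each of 19 alternatives, and 7 without each library in turn. With no filter 4 members were called, 0 higher and 4 lower. Quantile normalization called 4 higher and 11 lower, and array weights 1 higher and 16 lower, with MT-ND2, MT-CO3, MT-TV, MT-TC and MT-TG called in addition. Leaving out each library gave 7 to 14 members called, 1 to 2 higher and 6 to 12 lower, and 1508 to 2443 genes overall. Over all genes, array weights called 3756 and scaling by mitochondrial mRNA reads 1157. That scaling split all calls into 978 higher and 179 lower, against 1154 and 1235 as reported. The minus-strand share was 0.13 on the log2 scale with FPKM sums, and its groups then overlapped. Median-ratio scaling changed nothing, since the deposited values already stand on that scale. Depth was not varied, and the causes of these differences were not tested.

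With the group means taken out, r between same-numbered libraries of the 2 groups was 0.16, -0.08, -0.02 and 0.10 for numbers 1 to 4. Between libraries of different number it was -0.32 to 0.20. So few values cannot decide whether the numbers mark pairs. With the replicate number as a block, 16 members were called, 3 higher and 13 lower, and 1881 genes overall.

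Signs turned for members that did not pass the test. These were MT-TD with a pseudocount of 0.1 (0.081) and array weights (0.13), and MT-ATP6 and MT-ND5 with quantile normalization (0.12 and 0.20, MT-ND5 then called, limma adjusted p = 0.0167) and with scaling by mitochondrial mRNA reads (0.081 and 0.087). Leaving out each library gave log2 changes of -0.14 to 0.39 for MT-TN, -0.16 to 0.014 for MT-ATP6, -0.21 to 0.82 for MT-TH, -0.018 to 0.27 for MT-ND6, -0.057 to 0.14 for MT-TP and -0.17 to 0.048 for MT-ND5.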
